A study of Mus musculus with 76 samples.

Results

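Hippocampal interneurons that make somatostatin, the inhibitory neuropeptide encoded by Sst, were set against interneurons of the same origin with little or no Sst RNA. The 62 cells analysed came from dorsal CA1 of mice at postnatal day 4 and were measured by Patch-seq, a method that aspirates a single recorded neuron through the pipette for RNA sequencing. A cell was placed in the Sst-expressing class when its Sst level was 10 CPM (counts per 1000000 counts of the cell) or more, and 21 of the 62 cells met that limit. The other 41 cells are called Sst-negative here, although each of them held at least 1 Sst count. Sst chose the classes, so its own values are described without a test.

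All cells carried the Nkx2.1-Cre and Ai14 alleles, which mark cells that descend from Nkx2.1-expressing progenitors, mainly of the medial ganglionic eminence (MGE), with tdTomato. Tagged neurons were patched in the pyramidal layer, a choice that the submitters describe as enriching for future parvalbumin basket cells rather than for somatostatin cells. The gephyrin gene was either wild type (GPHN WT) or carried the S268/270A substitutions, called Mut in the labels. Cells fell into 4 groups, with 3 Sst-expressing and 6 Sst-negative cells in WT females, 7 and 12 in WT males, 7 and 12 in Mut females, and 4 and 11 in Mut males. The labels list 76 cells, of which the authors kept 67 after quality control, and 5 of these were marked as contaminated and are not among the 62. No animal is named, so no test used cells as replicates.

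Somatostatin and parvalbumin interneurons share an origin in the MGE and the transcription factor Lhx6, and part into separate classes as they settle. In the adult CA1, somatostatin cells include oriens-lacunosum moleculare cells, which inhibit distal dendrites of pyramidal neurons, and cells projecting out of the area, while parvalbumin basket cells inhibit the soma. Sst and Npy are switched on early, whereas parvalbumin itself appears only after the first postnatal week, so at this age the classes are read from other genes.

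Sst levels ran without a gap across the limit. In the 21 Sst-expressing cells Sst lay between 12.1 and 10062 CPM with a median of 135, and in the 41 Sst-negative cells between 0.124 and 9.23 CPM with a median of 0.936. On the length-scaled scale of the deposited table the ranges were 28.6 to 30779 and 0.366 to 25.2 TPM, transcripts per 1000000. Just inside the limit stood WT male cell 12 at 12.1 CPM, Mut female cell 14 at 15.8, WT male cell 11 at 19 and WT male cell 6 at 22.5. Just outside stood WT male cell 17 at 9.23 CPM, Mut male cell 16 at 7.23, WT male cell 14 at 7.17 and Mut female cell 23 at 7.09. High levels were rare: 11 cells reached 100 CPM and 2 cells reached 1000 CPM, Mut male cell 7 at 10062 and Mut female cell 22 at 2287. Sst lies on chromosome 16, 23889573 to 23890958 on the minus strand of GRCm38.

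**Figure D1:**
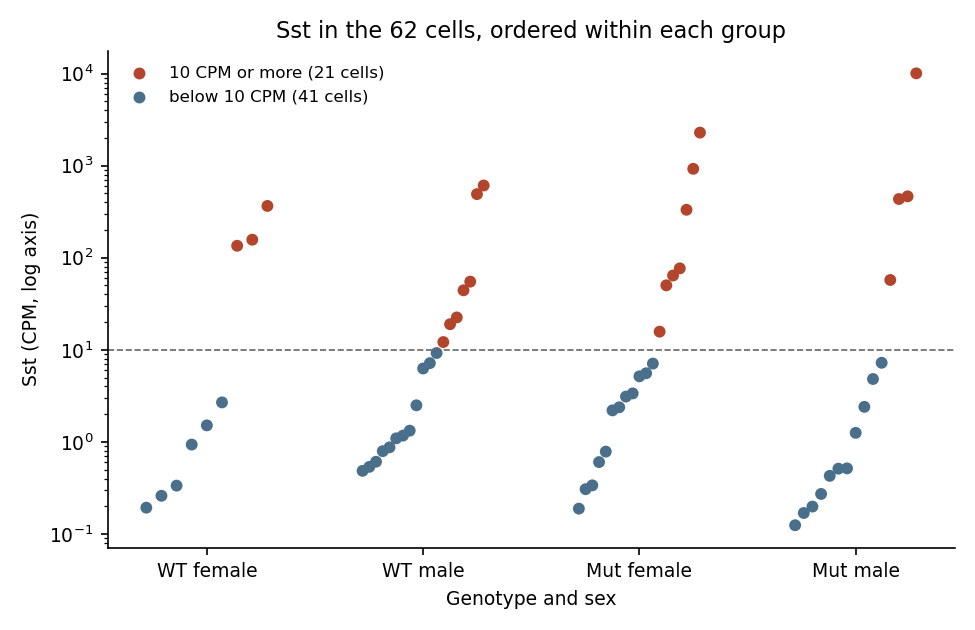
Sst level of each of the 62 cells in CPM on a log axis, in 4 groups of genotype and sex, with cells ordered by level within a group; points are cells, red at or above the dashed limit of 10 CPM and blue below it. Levels run without a gap through the limit in the WT male and Mut female groups, and single cells reach 2287 CPM (Mut female) and 10062 CPM (Mut male).

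The share of Sst-expressing cells lay between 26.7% and 36.8% in the groups. It was 33.3% of WT female cells (exact 95% binomial interval 7.49 to 70.1), 36.8% of WT male cells (16.3 to 61.6), 36.8% of Mut female cells (16.3 to 61.6) and 26.7% of Mut male cells (7.79 to 55.1). By genotype it was 10 of 28 WT cells (35.7%, 18.6 to 55.9) and 11 of 34 Mut cells (32.4%, 17.4 to 50.5). These intervals cover counting error only, since cells of 1 pup are not independent and PCR reads carried no molecular identifiers.

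Total counts per cell were about 3543750 to 11407200 in Sst-expressing cells (median 6080360) and 2946460 to 12070800 in Sst-negative cells (median 6568790) and medians of 11340 and 11234 genes stood at 1 count or more. The order of the median totals differed between groups. It was 4850480 in Sst-expressing and 6906930 in Sst-negative cells of WT females, 4639430 and 7506730 in WT males, 7152610 and 5329440 in Mut females and 7084350 and 7743090 in Mut males, and the part of depth in the differences below was not tested. Most genes held a few reads in most cells, so a gene is called carried by a cell only at 10 CPM or more; medians of 4337 and 3963 genes passed that limit.

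Most members carried markers of the labelled identity, but some carried few. Of 9 measured MGE interneuron markers the median Sst-expressing cell carried 6, with a range of 0 to 9, and the median Sst-negative cell also 6, with a range of 2 to 9. WT male cell 12, the member nearest the limit, carried none of the 9. It held Lhx6 at 2.55 CPM, Gad1 at 8.24 and Npy at 12.1. Only 2 were carried by each of WT male cells 15 and 16, WT female cells 7 and 9 and Mut female cell 18. WT male cell 9 and Mut female cells 2 and 6 carried 3 each. Mut female cells 2 and 18 each carried 9 of 12 astrocyte markers. Mut male cell 1 carried 10, as did Mut female cell 5, which is a Sst-expressing cell. Mut female cell 20 carried 10 of 12 microglia markers and WT male cell 6 carried 8, beside 7 and 5 MGE markers. Summed microglia markers spanned 0.922 to 7815 CPM in Sst-expressing cells (median 12) and 1.02 to 2412 in Sst-negative cells (median 19.3). Astrocyte markers had medians of 547 and 231 CPM (ranges 14.6 to 3008 and 11.2 to 11785), red blood cell markers 769 and 301 (14.7 to 3316 and 2.75 to 26898), and pyramidal neuron markers 725 and 927 (153 to 3334 and 146 to 4412). Oligodendrocyte lineage markers had medians of 7.25 and 7.39 CPM (0.332 to 1916 and 0.341 to 1033), and 12 of 21 and 26 of 41 cells carried none, while Mut female cell 21 carried 5 of 9. Of the 6 tested, 5 were carried by a larger and 1 by a smaller share of Sst-expressing cells, with a median log2 fold change of 2.37 and none past the test described below. Endothelial and mural markers had medians of 63.9 and 37.7 CPM (4.03 to 336 and 3.36 to 512), and all 3 tested were carried by a smaller share. Microglia markers reached 10 CPM in 7 of 21 and 17 of 41 cells. The part of such RNA in the differences below was not tested beyond the values given without 4 cells rich in microglia markers. Those 4 cells carried 8 or more of the 12 microglia markers. Mut male cell 18, which carried 6 with a sum of 2412 CPM, was not among them.

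For the test, the counts of the cells of each class were summed within each of the 4 groups. A pup has 1 genotype and 1 sex, so the 4 groups come from different animals, and the 8 sums were compared with edgeR's quasi-likelihood test with the group as a block. No gene passed at an adjusted p under 0.05: 0 of 13542 genes tested were higher (0%) and 0 were lower (0%) in Sst-expressing cells, and the lowest adjusted p was 0.9998. At an unadjusted p under 0.05, 101 genes were higher (0.746%) and 381 lower (2.81%). DESeq2 on the same sums called 170 genes higher and 723 lower. The biological coefficient of variation was 1.08. Levels of sums below are CPM divided by the TMM factor, a scaling between libraries that ran from 0.741 to 1.17 here, so they differ from plain CPM of the cells. The median gene had a log2 fold change of -0.19 (Sst-expressing over Sst-negative), and this median was -0.40 with library totals and -0.07 with median-of-ratios scaling, so values are to be read against it.

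A second, descriptive measure was the share of cells carrying a gene. In all 4 groups, 250 of the 13542 genes were carried by a larger share of Sst-expressing than of Sst-negative cells (1.85%) and 516 by a smaller share (3.81%). With all cells of a class taken as one, 6113 of the 13542 genes were carried by a larger and 6752 by a smaller share of Sst-expressing cells. No test over cells was made. The Sst-expressing sums pooled fewer cells than the Sst-negative sums of the same group, and the part of this in the unequal counts was not tested.

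Genes of general interneuron identity were carried in both classes. Lhx6, the MGE transcription factor, was carried by 20 of 21 Sst-expressing and 37 of 41 Sst-negative cells, with medians of 271 and 341 CPM. Gad1, which makes GABA, was carried by 20 and 38 cells (medians 398 and 568.1 CPM), and Gad2 by 15 and 33 cells (149 and 172 CPM). The Gad2 shares were 71.4% and 80.5%. They were 57.1% and 82.8% without the Mut female cells, and changed order to 76.5% and 73.3% without the Mut male cells. Nxph1, a neurexophilin of MGE interneurons, was carried by 16 and 35 cells, and Slc32a1, the vesicular GABA transporter, by 7 and 16. Their log2 fold changes lay between -0.36 for Lhx6 (SE 0.36) and 0.03 for Slc32a1 (SE 1.27).

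Npy, the peptide most often paired with somatostatin, was carried by most cells of both classes. It was carried by 19 of 21 Sst-expressing and 35 of 41 Sst-negative cells, and its medians were both 343 CPM, with ranges of 5.77 to 6591 and 1.78 to 4681. The fit gave it 0.60 on the log2 scale (SE 0.55, unadjusted p = 0.297). The sums stood at 275 CPM in Sst-expressing and 462 in Sst-negative cells of WT females, 283 and 379 in WT males, 1611 and 928 in Mut females and 2807 and 311 in Mut males, so the Sst-expressing sum was the lower one in both WT groups and the higher one in both Mut groups. The medians over cells went against the order of the sums in WT males, at 334 and 174 CPM, and in Mut females, at 534 and 607 CPM. They kept that order in WT females, at 54.2 and 427 CPM, and in Mut males, at 2081 and 343 CPM. Mut female cell 22, at 6591 CPM, alone held 44.1% of the Npy summed over the Sst-expressing cells. Npy and Lhx6 were carried together by 18 of 21 and 33 of 41 cells.

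Cort, which encodes cortistatin, a peptide related to somatostatin, was carried by 13 of 21 Sst-expressing cells and 16 of 41 Sst-negative cells. The shares were 61.9% and 39.0%, and 50% and 41.4% without the Mut female cells. In Mut males the Sst-expressing cells had the smaller share. The median of Cort was 47.1 CPM against 1.28 CPM. The sums stood at 139 and 47.4 CPM in WT females, 44.7 and 18.4 in WT males, 54.5 and 28.9 in Mut females and 271 and 62 in Mut males, so the Sst-expressing sum was higher in each of the 4 groups. The log2 fold change of 1.47 (SE 0.78, unadjusted p = 0.0830) did not pass the test. It was 0.75 without Mut male cell 8, which held Cort at 858 CPM and Sst at 464 CPM. The other Sst-expressing cells of Mut males held Cort at 1.84, 3.3 and 61.9 CPM, so the higher sum of that group rested on cell 8.

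Other peptide genes went both ways. Tac1, which encodes substance P, was carried by 11 of 21 and 19 of 41 cells, with a log2 fold change of 1.25 (SE 0.45, unadjusted p = 0.0166) that was 0.35 without WT female cell 3, 0.50 without Mut male cell 8 and 0.80 without WT male cell 11. Crh, which encodes corticotropin-releasing hormone, was carried by 0 and 4 cells (unadjusted p = 0.0457), and Nmb, which encodes neuromedin B, by 1 and 4 (unadjusted p = 0.0470), both with the lower sum in Sst-expressing cells of all 4 groups. Pnoc, which encodes the precursor of nociceptin, was carried by 11 and 17 cells, a larger share in all 4 groups, although the sums were lower in both Mut groups (64.2 against 88.2 CPM in females, 142 against 195 in males). Over the 8 other neuropeptide genes tested, 6 were carried by a larger and 2 by a smaller share of Sst-expressing cells, none passed the test, and the median log2 fold change was 0.47. Over all 13542 genes the split was 6113 larger to 6752 smaller and the median -0.19, and this background also stands behind the list counts that follow.

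Genes known to mark subsets of somatostatin cells were spread over the members rather than shared by them. Reln, an extracellular matrix glycoprotein, was carried by 8 of 21 Sst-expressing and 14 of 41 Sst-negative cells. Calb1, the calcium buffer calbindin, was carried by 9 and 15. Nos1, the neuronal nitric oxide synthase of long-range somatostatin cells, was carried by 6 and 4, but by no cell of either class in WT females and by 4 of 7 and 2 of 12 cells in WT males. At an Sst limit of 1 CPM the Nos1 shares changed order, to 14.6% and 19%. Npas1, a transcription factor seen in MGE- and CGE-derived interneurons, was carried by 6 and 3 cells, and Crhbp, the binding protein of corticotropin-releasing hormone, by 5 and 4. Chodl, a marker of long-range Nos1 cells, was carried by 0 and 2.

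Members differed in which of these genes they held together. Of the 7 genes Npy, Cort, Pnoc, Reln, Calb1, Tac1 and Nos1, a Sst-expressing cell carried a median of 4 with a range of 2 to 6, and a Sst-negative cell a median of 3 with a range of 1 to 5. Mut male cell 7, highest in Sst, held Npy at 3451 CPM, Grik1 at 679, Npas1 at 480 and Pnoc at 348, with Cort at 1.84. Mut female cell 22 held Npy at 6591 CPM, Calb1 at 1318 and Reln at 947. Mut male cell 8 held Npy at 5234 CPM, Tac1 at 4833 and Cort at 858. WT male cell 15 held Tac1 at 651 CPM and Lhx6 at 551, with Gad2 at 2.16. WT male cell 11, with Sst at 19 CPM, held Tac1 at 1842 CPM, Npy at 733 and Nos1 at 108. No 2 of these 5 cells carried the same set of the 7 genes.

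**Figure D2:**
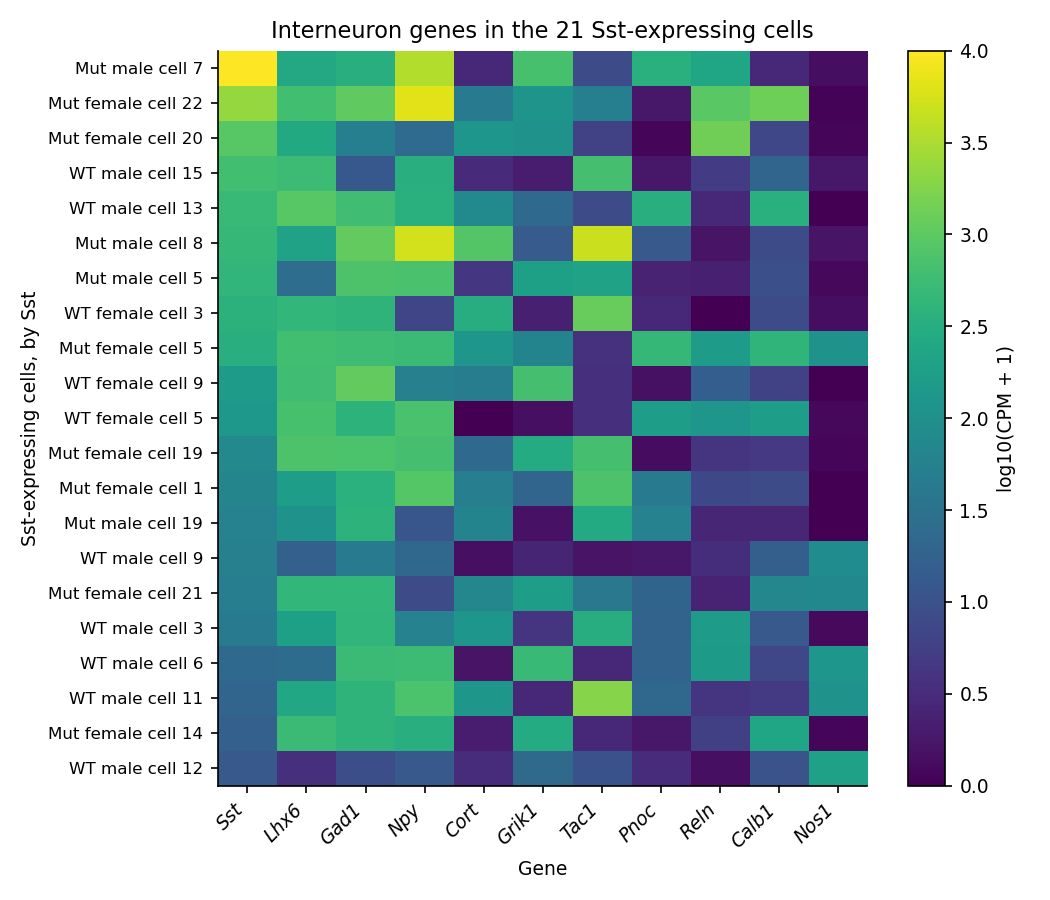
Levels of Sst and 10 interneuron genes in the 21 Sst-expressing cells, as log10(CPM + 1) in colour; rows are cells from the highest Sst (Mut male cell 7, 10062 CPM) to the lowest (WT male cell 12, 12.1 CPM) and columns are genes. Lhx6 and Gad1 are bright in most rows, while Cort, Grik1, Tac1, Pnoc, Reln, Calb1 and Nos1 are bright in differing rows.

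Grik1, which encodes the GluK1 subunit of kainate receptors, a class of ionotropic glutamate receptor, had the widest difference in share among the 20 genes of smallest p listed further on. It was carried by 14 of 21 Sst-expressing cells (66.7%) and 10 of 41 Sst-negative cells (24.4%), with medians of 23 and 1.1 CPM. All 7 Sst-expressing cells of Mut females carried it, between 19.4 and 292 CPM, against 2 of 12 Sst-negative cells there. It was carried by 3 of 4 and 2 of 11 cells in Mut males, by 3 of 7 and 4 of 12 in WT males, and by 1 of 3 and 2 of 6 in WT females, where the shares were equal. The 3 WT female values were 0.433, 1.24 and 663 CPM, the last in cell 9. The ranges of the classes overlapped in every group.

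The Grik1 sums stood at 448 and 17.4 CPM in WT females, 67.1 and 19.7 in WT males, 140 and 11.2 in Mut females and 271 and 22.5 in Mut males. The fit gave Grik1 a log2 fold change of 3.45 (SE 0.77, unadjusted p = 0.00074), and the Sst-expressing sum was higher in 4 of 4 groups. In both WT groups that order rested on 1 cell. WT female cell 9 held Grik1 at 663 CPM, and the next highest Sst-expressing cell there held 1.24. WT male cell 6, which carried 8 microglia markers, held 488 CPM, and the next highest Sst-expressing cell there held 23. The log2 fold change was 1.96 without WT female cell 9, 2.96 without the 4 cells rich in microglia markers and 3.09 without the highest Sst cell of each group. With the limit for Sst at 1 CPM in place of 10, Grik1 was carried by 39.0% and 38.1% of the classes. Grik1 lies on chromosome 16, 87895900 to 88290265 on the minus strand. Cort and Grik1 were carried together by 9 of 21 Sst-expressing and 6 of 41 Sst-negative cells.

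Other glutamate receptor genes did not follow Grik1 closely. Grik2, encoding GluK2, was carried by 12 of 21 and 17 of 41 cells (log2 fold change 0.24, SE 0.97), and Grik5, encoding GluK5, by 10 of 21 and 26 of 41 (-1.28, SE 1.41). Grin3a, an NMDA receptor subunit known from somatostatin cells, was carried by 11 and 17 cells but by 0 of 3 and 4 of 6 in WT females. The AMPA receptor subunits Gria1 and Gria2 were carried by 19 and 38 and by 20 and 34 cells. Grm5, a metabotropic receptor, was carried by 18 and 37 cells. Of 14 ionotropic receptor genes tested, 9 were carried by a larger and 5 by a smaller share of Sst-expressing cells, with a median log2 fold change of 0.25 and none past the test, beside 6113 larger, 6752 smaller and -0.19 over all genes.

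The receptors of somatostatin itself were scarce. Sstr4 was carried by 5 of 21 and 6 of 41 cells (log2 fold change 1.63, SE 1.53), and Sstr2 by 2 and 1 cells. Sstr4 was the 1 receptor of 5 that passed the filter on low counts.

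**Figure D3:**
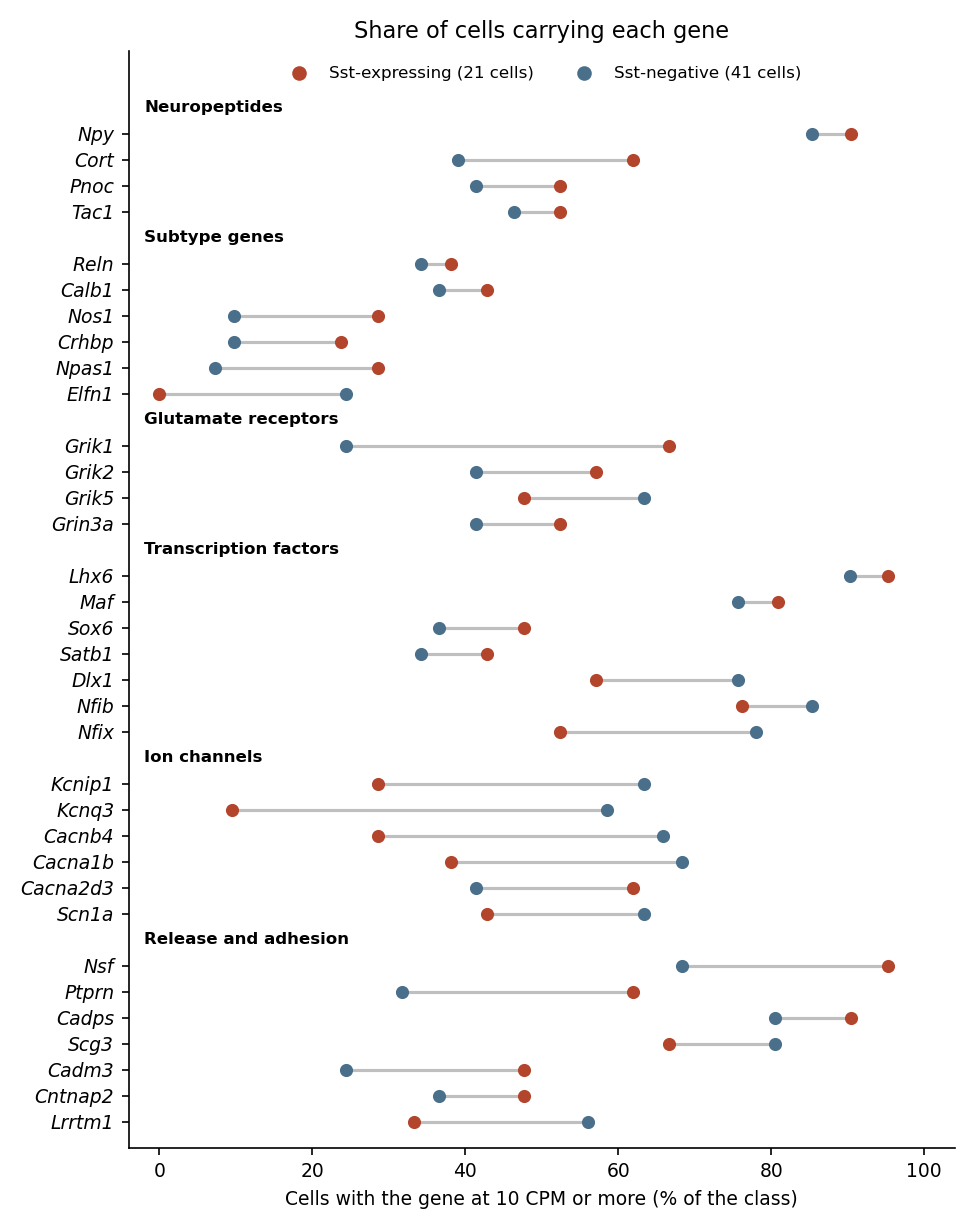
Share of cells in percent that carried each of 34 genes at 10 CPM or more, in Sst-expressing cells (red, 21 cells) and Sst-negative cells (blue, 41 cells), grouped by the genes' roles; a grey line joins the shares of a gene. The points of Npy, Lhx6 and Reln lie close together, Grik1 stands at 66.7% and 24.4%, and Kcnq3 at 9.52% and 58.5%.

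Several ion channel genes were carried by a smaller share of Sst-expressing cells. Kcnip1, which encodes KChIP1, an auxiliary subunit of A-type potassium channels, was carried by 6 of 21 Sst-expressing cells (28.6%) and 26 of 41 Sst-negative cells (63.4%), with medians of 2.36 and 143 CPM. The share was smaller in all 4 groups: 1 of 3 against 4 of 6 in WT females, 3 of 7 against 7 of 12 in WT males, 1 of 7 against 5 of 12 in Mut females and 1 of 4 against 10 of 11 in Mut males. The highest cells of the classes stood at 537 and 1937 CPM. The sums did not all differ one way, since they stood at 160 CPM in Sst-expressing and 116 in Sst-negative cells of WT males. They stood at 69.7 and 197 in WT females, 9.51 and 307 in Mut females and 51.2 and 294 in Mut males.

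The fit gave Kcnip1 -2.09 on the log2 scale (SE 0.91, unadjusted p = 0.0411). This value was -3.41 without WT female cell 5, -3.21 without Mut male cell 19, -1.21 without the Mut female sums and -6.02 when only cells at 100 CPM of Sst or more were set against the Sst-negative ones. Kcnip1 and Grik1 were carried together by 2 of 21 and 9 of 41 cells. Kcnip1 lies on chromosome 11, 33629339 to 33993152 on the minus strand.

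Kcnq3, a subunit of the M-type potassium channel, was carried by 2 of 21 Sst-expressing cells (9.52%) and 24 of 41 Sst-negative cells (58.5%). The carriers were WT male cell 13 at 88.8 CPM and 1 Mut female cell at 48.6 CPM. In Mut males none of 4 Sst-expressing cells exceeded 1.67 CPM, while 9 of 11 Sst-negative cells lay between 30.2 and 332 CPM. The other 2 stood at 1.82 and 7.28, so the nearest values of the classes both lay under 10 CPM. How many of all genes parted these cells in this way was not counted. The classes overlapped in the other groups. The sums stood at 2.92 and 42.8 CPM in WT females, 14 and 35.3 in WT males, 12.8 and 50.1 in Mut females and 0.788 and 84.9 in Mut males, lower in 4 of 4 groups. The fit gave Kcnq3 -3.30 on the log2 scale (SE 1.51, unadjusted p = 0.0497). Kcnq3 lies on chromosome 15, 65986387 to 66286642 on the minus strand.

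Calcium channel genes went both ways. Cacnb4, an auxiliary beta subunit, was carried by 6 of 21 and 27 of 41 cells, with medians of 2.39 and 60.7 CPM and a smaller share and sum in all 4 groups (log2 fold change -2.69, SE 0.94, unadjusted p = 0.0143). Cacna1b, the N-type pore, was carried by 8 and 28 cells, and Cacna1d, an L-type pore, by 8 and 22, both by a smaller share in all 4 groups. Cacna2d3, an alpha2delta subunit, was carried by 13 and 17 cells, a larger share in all 4 groups, with a log2 fold change of 2.46 (SE 0.96, unadjusted p = 0.0248) that was 1.12 without Mut male cell 5 and 1.62 without WT female cell 3. Its sum was nevertheless lower in WT males, at 73.2 against 93.8 CPM. Of 14 calcium channel genes tested, 8 were carried by a larger and 6 by a smaller share of Sst-expressing cells, beside 6113 and 6752 of all genes. In all 4 groups 1 was carried by a larger and 3 by a smaller share, beside 1.85% and 3.81% of all genes. The list was chosen with earlier results known, and none of its genes passed the test.

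Of 26 voltage-gated potassium channel genes tested, 11 were carried by a larger and 15 by a smaller share of Sst-expressing cells, and Kcnip1 and Kcnq3 were the 2 with a smaller share in all 4 groups, beside 3.81% of all genes. The median log2 fold change of these 26 was -0.50 against -0.19 over all genes. Scn1a, the sodium channel gene known from parvalbumin cells, was carried by 9 of 21 and 26 of 41 cells, a smaller share in all 4 groups (log2 fold change -1.38, SE 1.24). Kcnk2, a two-pore potassium channel, was carried by 7 and 21 cells, also by a smaller share in all 4 groups.

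**Figure D4:**
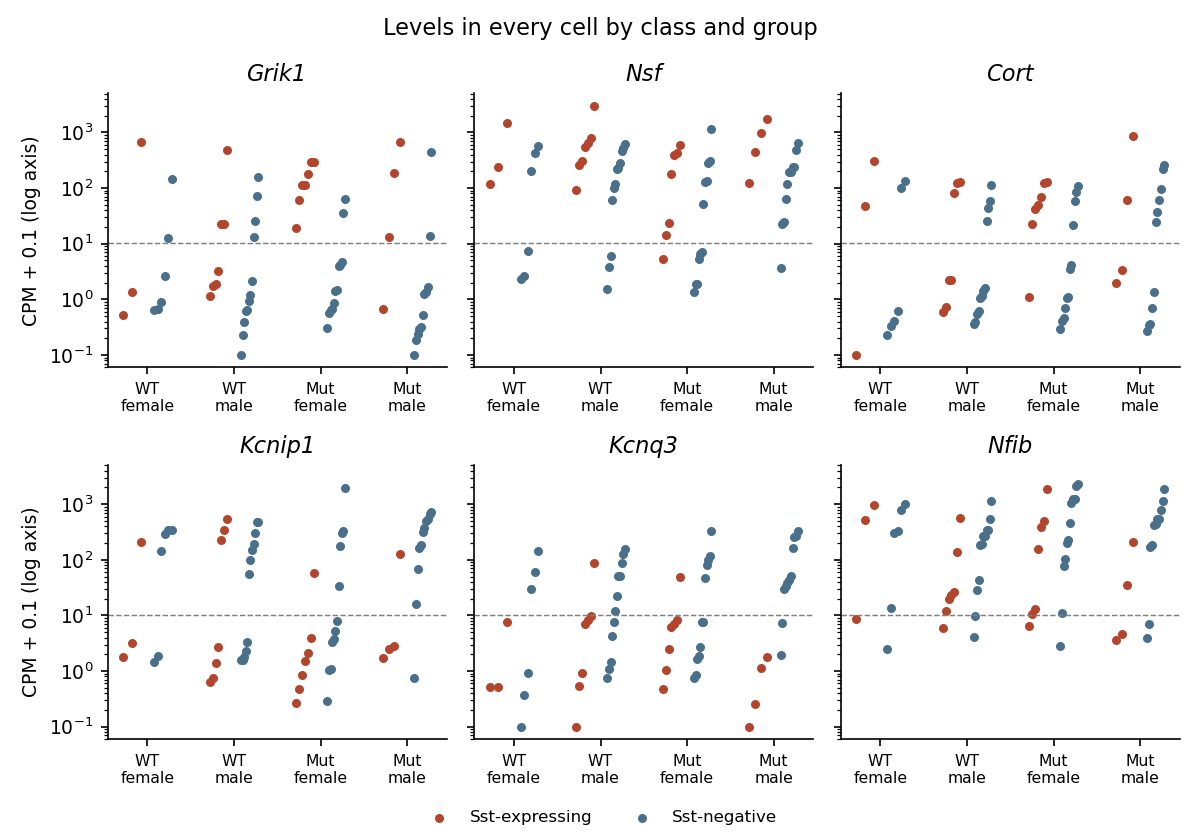
Levels of 6 genes in every cell as CPM + 0.1 on a log axis, by class (red Sst-expressing, blue Sst-negative) within the 4 groups of genotype and sex; points are cells and the dashed line is the limit of 10 CPM for carrying a gene. All 7 Sst-expressing cells of Mut females lie above the limit for Grik1, and 2 of 21 Sst-expressing cells lie above it for Kcnq3.

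Transcription factor genes of the MGE lineage gave no contrast shared by all 4 groups. Maf was carried by 17 of 21 and 31 of 41 cells, Sox6 by 10 and 15, Satb1 by 9 and 14, and Sp9 by 12 and 29. Dlx1 was carried by 12 and 31 cells. Nkx2-1, which most cortical and hippocampal interneurons switch off, was carried by 2 and 9 cells. Of 17 genes on this list tested, 5 were carried by a larger and 12 by a smaller share, none in all 4 groups, and the median log2 fold change was -0.55 against -0.19 over all genes.

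Nfib and Nfix, transcription factor genes of the nuclear factor I family, had lower medians in Sst-expressing cells. Nfib was carried by 16 of 21 and 35 of 41 cells with medians of 26.8 and 306 CPM (log2 fold change -1.19, SE 0.53, unadjusted p = 0.0430), but its sum was higher in Sst-expressing cells of WT females (836 against 492.8 CPM), and the fold change was -1.80 without the WT female and -0.70 without the Mut male sums. Nfix was carried by 11 and 32 cells, a smaller share in all 4 groups, with sums of 49.5 and 251, 164 and 183, 191 and 380, and 156 and 191 CPM in WT females, WT males, Mut females and Mut males. Mef2c, a factor of parvalbumin cell maturation, was carried by every cell, with medians of 480 and 927 CPM. Its sums were lower in 4 of 4 groups: 865 and 1371 CPM in WT females, 402 and 732 in WT males, 570 and 1149 in Mut females, and 1114 and 1347 in Mut males (log2 fold change -0.70, SE 0.26, unadjusted p = 0.0191). This value was -0.43 without the highest Sst cell of each group. Pvalb itself was carried by 1 of the 62 cells, a Sst-negative one.

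Among 15 genes of the parvalbumin lineage tested, 5 were carried by a larger and 9 by a smaller share of Sst-expressing cells, with a median log2 fold change of -0.63 and none past the test. Among 21 companions of Sst known from somatostatin interneurons, 13 were carried by a larger and 8 by a smaller share, with a median of 0.23. Both medians stand beside -0.19 over all genes, and both splits beside 6113 larger and 6752 smaller. At an unadjusted p under 0.05 in edgeR, 2 parvalbumin lineage genes were higher and 2 lower. For the companions these counts were 0 higher and 2 lower, beside 101 higher and 381 lower over all genes. Of these 21, Pnoc was carried by a larger share in all 4 groups and Elfn1 by a smaller one. Elfn1, a postsynaptic adhesion protein known from adult oriens somatostatin cells, was carried by 0 of 21 Sst-expressing cells and 10 of 41 Sst-negative ones, with sums of 0.0712 to 0.702 CPM against 3.11 to 23.6 CPM. The fit gave it -5.46 on the log2 scale (SE 1.73, unadjusted p = 0.00848).

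Genes of synaptic release and adhesion were also read. Nsf, the ATPase that takes apart SNARE complexes after vesicle fusion, was carried by 20 of 21 Sst-expressing cells and 28 of 41 Sst-negative cells, with medians of 391 and 120 CPM. Its share was larger in all 4 groups, with 3 of 3 and 3 of 6 in WT females, 7 of 7 and 9 of 12 in WT males, 6 of 7 and 6 of 12 in Mut females, and 4 of 4 and 10 of 11 in Mut males. The sums stood at 1107 and 237 CPM in WT females, 649 and 196 in WT males, 224 and 147 in Mut females and 962 and 167 in Mut males. The fit gave it 1.78 on the log2 scale (SE 0.41, unadjusted p = 0.000968), and 1.13 without WT female cell 9. Under the alternative settings listed below, the log2 fold change of Nsf lay between 0.71 and 2.68. It was 2.68 when only the 11 cells at 100 CPM of Sst or more were set against the Sst-negative cells. There it passed the test (adjusted p = 0.0145 in edgeR). The Sst-expressing sum of WT males then held cells 13 and 15 alone, with Nsf at 634 and 2995 CPM. Of these, cell 15 carried only 2 MGE markers.

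At that stricter limit 6 genes were higher and 0 lower, with 887 lower at an unadjusted p under 0.05. The other 5 were Calm2, Lars2, Tuba1a, Ubb and mt-Co3, all carried by every cell. Their log2 fold changes were 0.75, 0.97, 0.56, 0.56 and 0.99, and the median over all genes in that fit was -0.69. At the limit of 10 CPM the same 5 genes had log2 fold changes of 0.22 to 0.65.

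Ptprn, a protein of dense-core vesicles, was carried by 13 of 21 and 13 of 41 cells, and Cadps, which primes such vesicles, by 19 and 33, both by a larger share in all 4 groups. The granin genes Scg3 and Chgb were carried by 14 and 33 and by 14 and 25 cells, Scg3 by a smaller share in all 4 groups. Rab3b, a vesicle GTPase of peptide-releasing neurons, was carried by 18 and 34. Of the adhesion genes, Cadm3 was carried by 10 and 10 cells (log2 fold change 2.59, SE 1.14, unadjusted p = 0.0427) and Cntnap2 by 10 and 15, both by a larger share in all 4 groups, and Lrrtm1 by 7 and 23, a smaller share in all 4. Mdga1, a modulator of neuroligin at inhibitory synapses, was carried by 4 and 13 cells, a smaller share in all 4. Of the guidance receptors, Nrp2 was carried by 8 and 8 cells, a larger share in all 4 groups, and Robo1 by 10 and 11 (log2 fold change 2.19, SE 1.17). Of the immediate early genes, Nr4a1 was carried by 10 and 10 cells, a larger share in all 4, and Fos by 14 and 29.

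The 10 genes per direction of smallest p whose ratio of sums pointed the same way in all 4 groups were, on the higher side, Cog4, Grik1, Nsf, Arl13b, Thbs1, Cdh13, Gng4, Sidt2, Ppat and Pdcd6. Their log2 fold changes lay between 1.78 for Nsf and 5.25 for Arl13b, and none passed the test in edgeR. DESeq2 called 17 of these 20 genes, all but Nsf, Sidt2 and Pdcd6. Cog4, a subunit of the Golgi tethering complex, had the smallest p (log2 fold change 4.06, SE 0.70, unadjusted p = 8.42e-05), but was carried by only 7 of 21 and 7 of 41 cells, and WT female cell 9 held 45.8% of the Cog4 summed over the Sst-expressing cells. Arl13b, a GTPase of primary cilia, was carried by 6 and 3 cells, and Thbs1, the matrix protein thrombospondin, by 7 and 3. Cdh13, a cadherin without a transmembrane segment, was carried by 8 and 12 cells, and Mut female cell 20, rich in microglia markers, held 29.9% of it and 30.1% of Thbs1.

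Several of these values rested on single cells. Without WT female cell 9 the log2 fold change was 2.56 for Cog4 and 1.20 for Gng4, a G protein gamma subunit, against 2.91 with all cells. Gng4 stood at 1.40 without Mut male cell 8. Cdh13 went from 2.84 to 1.46 without WT female cell 3, to 1.59 without Mut male cell 7 and to 0.13 without the highest Sst cell of each group. Pdcd6, a calcium-binding protein, went from 1.83 to 0.85 without WT female cell 3, to 2.75 without Mut female cell 16 and to 0.79 without the highest Sst cells. Sidt2 went from 2.48 to 1.63 without Mut female cell 20 and to 3.77 without Mut female cell 15.

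On the lower side stood Ccdc90b, Josd1, Arntl, Nme6, Slc25a14, Rbm12, Tent4a, Vrk1, Zw10 and Gtf3c5, with log2 fold changes between -7.16 for Josd1 and -5.13 for Arntl. These were genes carried by 11 to 19 of the Sst-negative cells and by 0 to 2 of the Sst-expressing cells. Under the alternative settings listed below, their log2 fold changes rose as high as 1.34 for Zw10, 0.97 for Ccdc90b and 0.14 for Gtf3c5. The highest values were -0.19 for Josd1, -0.30 for Arntl and -0.44 for Slc25a14. For the other genes they lay between -2.24 for Nme6 and -1.72 for Rbm12. Ccdc90b was carried by 0 of 21 and 11 of 41 cells and Josd1, a deubiquitinase, by 0 and 13. Arntl, which encodes the clock factor BMAL1, was carried by 2 and 19 cells, with sums of 0.925 and 88.4 CPM in WT females, 0.653 and 44.8 in WT males, 2.19 and 50.5 in Mut females and 9.46 and 92.8 in Mut males. The direction agreement over groups was part of the choice of all 20 genes and is no support for them. Being carried by 25% or more of the higher class was also part of that choice, so their counts of cells are no support either.

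**Figure D5:**
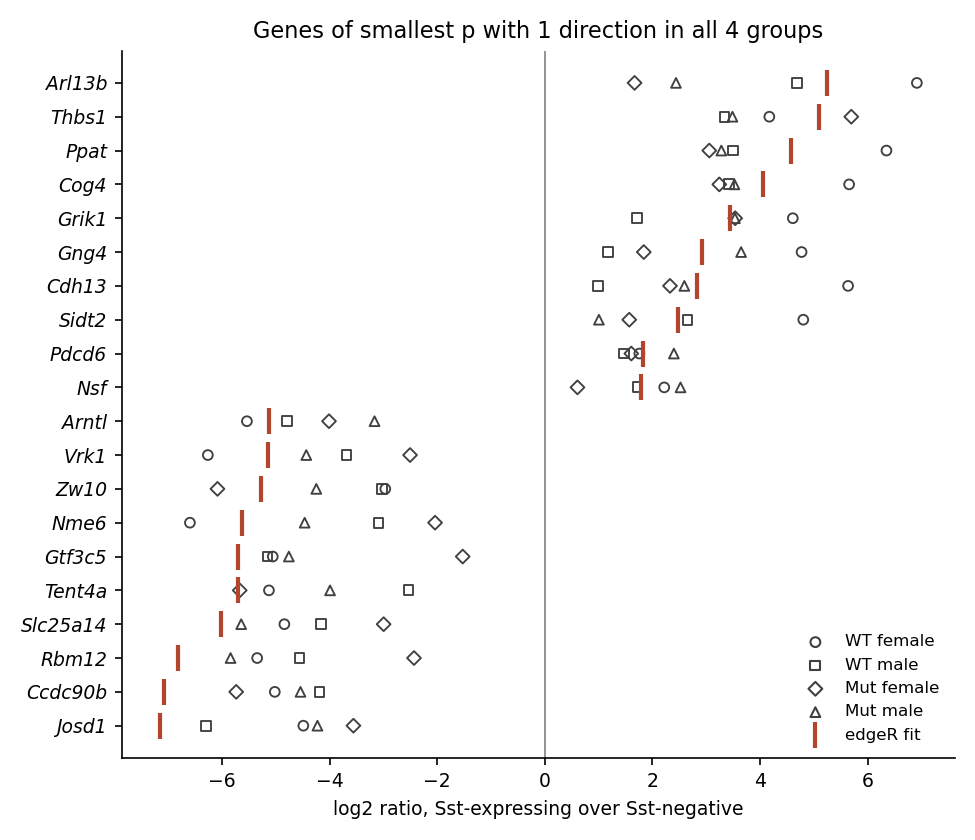
Log2 ratio of the TMM-scaled CPM of the sums (plus 1 CPM) of Sst-expressing over Sst-negative cells in each of the 4 groups (open symbols) and the edgeR log2 fold change (red bar), for the 20 genes of smallest p that pointed one way in all groups. The 1 CPM added draws the group ratios of scarce genes toward 0, so that the edgeR value of Josd1 (-7.16) lies beyond all 4 of its ratios.

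The 5 genes whose levels followed Sst most closely over the 62 cells, among genes carried by 15 cells or more, were Vps45 (Spearman rho 0.49), Rhobtb3 (0.47), Ahsa1 (0.47), Elovl5 (0.46) and Rrp15 (0.43). These correlations are across cells of 4 groups that differ in depth and share animals to an unknown extent, so they are given as a description with no p; Sst also chose the classes. Vps45, a vesicle fusion regulator, was carried by 9 of 21 and 7 of 41 cells, and Ahsa1, an activator of the chaperone HSP90, by 18 and 25.

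Genes of pyramidal neurons were present in both classes. Neurod6 was carried by 13 of 21 and 18 of 41 cells and Slc17a7, their vesicular glutamate transporter, by 7 and 15, with log2 fold changes of -0.09 (SE 1.21) and 0.09 (SE 1.45). Slc17a6, the other vesicular glutamate transporter, was carried by 0 and 9 cells, and Fibcd1, a gene of CA1 pyramidal neurons, by 1 and 10, both by a smaller share in all 4 groups (log2 fold changes -4.67 and -4.48, SE 1.59 and 1.85). Slc1a2, the glial glutamate transporter, was carried by 12 and 16 cells, a larger share in all 4 groups. Of the 12 astrocyte markers tested 9 were carried by a larger and 3 by a smaller share, the median log2 fold change was -0.14, and none passed the test. Slc1a3, another glial glutamate transporter, was carried by 7 and 12 cells and Mfge8 by 6 and 9, and their sums were lower in Sst-expressing cells of all 4 groups (unadjusted p = 0.0223 and 0.0171). The haemoglobin genes Hba-a1 and Hba-a2 were carried by 19 and 29 and by 19 and 34 cells.

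The contrast between the classes was not found to differ by genotype or by sex. In a fit with those terms, 0 genes passed for genotype and 0 for sex (lowest adjusted p = 1 in edgeR for each), with 367 and 416 genes at an unadjusted p under 0.05. A p that misses the threshold does not show that the contrast was the same.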

How the data were processed

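Patch-seq libraries of single neurons were made with Nextera XT, which does not mark strand, so overlapping sense and antisense genes cannot be told apart. The authors quantified reads with kallisto on GRCm38, per the submitters' processing notes; no version is given. The deposited tables hold expected counts (estimated counts that need not be whole) and TPM; TPM was used here only for Sst. The tables' other 44 columns of cells were not used here. How cells were passed or marked as contaminated is not given in the sources used here.

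CPM is a cell's deposited expected count per 1000000 counts of its column. Counts were summed by class and group into 8 sums of 18954101 to 86337842 counts and rounded. Sums were filtered with filterByExpr (minimum count 10) and scaled by TMM (factors 0.741 to 1.17). Levels of sums are CPM divided by the factor. The test was that of edgeR 4.0.16 (glmQLFit and glmQLFTest, group as block, 3 residual degrees of freedom, Benjamini-Hochberg adjustment). The fit was first run on simulated counts. Its pass condition was set only at a spread far below that of these data (biological coefficient of variation 1.08). Passing it does not say what the fit could recover here. Where nothing says that cells came from separate animals, p-values measure the spread of the contrast between the classes from group to group. Sst stayed out of the results. Alternatives were DESeq2 1.42.0, limma 3.58.1, other scalings, filters, Sst limits and cell sets, and each cell or group left out in turn.

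The classes, the 30 gene lists and the limit of 10 CPM were chosen with earlier results of these data known. Named genes are up to 10 per direction of smallest p with the ratio of sums one way in all 4 groups and the gene carried by 25% or more of the higher class (clone names and Sst passed over), the 5 genes most like Sst, and members of the lists; the 67 list members named, and 5 genes at the stricter Sst limit, were picked after their values were seen. Positions are from GENCODE M21, which matched 92 of 92 genes looked up. A few list members are not reported here. No sequence is printed, since the classes are sets of cells.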

Additional observations from a re-analysis of the deposited data

Results flagged for a closer look

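Within groups of 4 to 10 values, 35 were checked for a value far from the others. Chance alone trips this check in about 1 of 20 groups if values follow a normal distribution. Sst was checked as CPM without a log scale, and the ratios were those of chosen genes, so that rate may not hold here. Among the Sst-expressing cells of Mut females, the highest Sst value of 2287 CPM stood apart from the others, and in Mut males so did that of 10062 CPM. Without the cell of highest Sst in each group no gene passed the test in either direction. The ratios of 3 genes also stood apart among the 4 groups. The log2 ratio of Cog4 was 5.66 in WT females, and without WT female cell 9 the log2 fold change over all groups was 2.56 in place of 4.06. The log2 ratio of Ppat was 6.35 in WT females. The log2 ratio of Gtf3c5 was -1.53 in Mut females, nearer to 0 than in the other groups.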

How the results depend on the processing

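No gene passed in either direction in the main fit, nor with an Sst limit of 1 CPM, library totals, median-of-ratios scaling, Sst taken out of the totals, limma on mean log2 CPM, no filter, a filter on cells, without the microglia-rich cells or without the highest Sst cells. The fit without the group as a replicate block also gave 0 higher and 0 lower, with 342 and 405 genes at an unadjusted p under 0.05. No paired analysis by replicate number was possible because the labels give none. DESeq2 called 170 genes higher and 723 lower, and an Sst limit of 100 CPM gave 6 higher; the cause was not tested. Leaving out each cell or group in turn gave 0 and 0 throughout, with a lowest adjusted p of 0.150 without the Mut female sums. Genes in a larger share of Sst-expressing cells in all 4 groups numbered 137 and those in a smaller share 803 at an Sst limit of 100 CPM, against 250 and 516; without the microglia-rich cells there were 308 and 345, without the highest Sst cells 219 and 349, and without WT male cell 12, which lacked MGE markers, 212 and 437. These counts of shares were added after seeing the data.

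Of 382 values of 32 fold changes under the alternatives, 3 reversed, all at an Sst limit of 1 CPM: Ccdc90b at 0.97, Zw10 at 1.34 and Gtf3c5 at 0.14. Of the 382, 23 passed the threshold, 22 with DESeq2 and 1 (Nsf) at an Sst limit of 100 CPM. None of 2112 values with a cell or group left out reversed. Of the 67 genes named from lists, the sign of the difference in shares changed for 12 at an Sst limit of 1 CPM (among them Cadm3, Cntnap2, Grik2, Grin3a, Neurod6, Nos1 and Sox6), for 9 at 100 CPM, for 4 and 10 with a gene called carried at 1 and at 100 CPM, for 3 without the microglia-rich cells and for 3 without the highest Sst cells, Nfib among them. It changed for 10 without the Mut female cells, 2 without the WT female cells, and 3 each without the WT male and the Mut male cells. Without the TMM factors the order of the sums turned in 1 or more groups for Nos1, Grik5, Gria2, Grm5, Scn1a, Chgb, Fos and Sstr4, for which no order of sums is given. A share over 3 or 4 cells can take few values.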

Other observations

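The 5 cells that the authors kept but marked as contaminated, all WT, were outside the comparison. Sst stood at 266 CPM in 1 male cell and 494 CPM in the female cell, and between 0.263 and 0.494 CPM in the other 3 male cells, so 2 of the 5 would meet the limit of 10 CPM.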
